A study of Mus musculus with 12 samples.

Results

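The genes described here encode the subunits of the proteasome and of the immunoproteasome, its interferon-inducible form. They were chosen by name: a gene symbol made of Psma, Psmb, Psmc, Psmd or Psme and a number, with at least 1 CPM (the deposited unit, a read count relative to a scaled library size) in at least 3 libraries. 43 symbols in the table had such a name, and all 43 reached that level, out of 23937 genes in all. The measured values played no other part in the choice. The libraries are RNA sequencing of mouse CD8 T cells taken by fluorescence-activated sorting, in 4 groups of 3: blood of naive mice, brain of naive mice, brain 3 days after stroke, and brain 30 days after stroke. The labels give no strain, sex, age, genotype, stroke model or sham group, so the naive animals differ from the stroke animals in the operation as well as in the stroke. Nothing in the labels says that the 3 libraries of a group came from separate mice, and p-values therefore measure the spread between these libraries, which may in part be technical.

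The 26S proteasome is a barrel of alpha and beta rings, the 20S core, capped by a 19S regulatory particle. The cap recognises ubiquitin-tagged proteins, unfolds them with a ring of ATPases and feeds them into the core. Psmb5, Psmb6 and Psmb7 carry the proteolytic sites of the standard core. Interferon gamma induces their replacements Psmb8 (also called LMP7), Psmb9 (LMP2) and Psmb10 (MECL-1), along with Psme1 and Psme2, which form the PA28 activator ring. The resulting immunoproteasome is abundant in lymphocytes and cuts peptides that suit loading onto MHC class I molecules, the molecules CD8 T cells read.

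Of the 43 members, 36 had an entry among the RefSeq promoters (GRCm38.p6, the mm10 assembly). Entries were not found for Psma8, Psmb1, Psmb2, Psmb7, Psmc3, Psmd3 and Psmd7. The 4 promoters below are shown because the contrast between inducible and constitutive subunits runs through these genes. Each runs 5′ to 3′ on the gene's own strand from 250 bases before the RefSeq start to 20 bases after it, with matches to 3 short motifs in capitals. Psmb8 lies on the plus strand at chr17:34197945-34198214, and its capitals are a gamma activated site, TTCNNNGAA, an element of promoters that respond to interferon gamma, 97 bases before the start. Psmb9 lies on the minus strand at chr17:34187311-34187580 and holds no match. Psme1 lies on the plus strand at chr14:55578244-55578513, and its capitals are an interferon response element, GAAA repeated after a gap of 2 bases, read on the opposite strand from 10 bases after the start. Psmb5, a constitutive subunit, lies on the minus strand at chr14:54617976-54618245, and its capitals are the core of an antioxidant response element, TGACNNNGC, the letters bound by the stress factors of the NRF family, 47 bases before the start.
Psmb8: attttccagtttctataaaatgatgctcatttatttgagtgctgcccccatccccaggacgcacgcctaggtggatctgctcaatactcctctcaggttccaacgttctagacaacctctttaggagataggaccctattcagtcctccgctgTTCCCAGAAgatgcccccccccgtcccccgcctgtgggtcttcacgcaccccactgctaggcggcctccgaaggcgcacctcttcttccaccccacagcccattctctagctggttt
Psmb9: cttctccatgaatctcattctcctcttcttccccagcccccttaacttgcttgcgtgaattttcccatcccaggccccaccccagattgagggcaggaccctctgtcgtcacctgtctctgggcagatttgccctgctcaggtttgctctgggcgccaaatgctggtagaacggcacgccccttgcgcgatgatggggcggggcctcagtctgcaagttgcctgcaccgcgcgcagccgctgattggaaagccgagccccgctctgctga
Psme1: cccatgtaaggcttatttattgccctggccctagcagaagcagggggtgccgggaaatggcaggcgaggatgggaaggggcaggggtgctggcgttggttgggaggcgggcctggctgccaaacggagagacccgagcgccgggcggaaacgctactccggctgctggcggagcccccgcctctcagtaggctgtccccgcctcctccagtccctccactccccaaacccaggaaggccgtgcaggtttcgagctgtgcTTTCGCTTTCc
Psmb5: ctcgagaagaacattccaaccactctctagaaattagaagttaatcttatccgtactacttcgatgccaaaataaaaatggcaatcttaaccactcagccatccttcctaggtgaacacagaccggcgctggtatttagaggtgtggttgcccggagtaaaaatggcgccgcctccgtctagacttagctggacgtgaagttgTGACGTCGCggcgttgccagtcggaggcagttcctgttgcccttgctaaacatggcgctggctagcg
All 3 motifs were searched on both strands from 250 bases before to 50 bases after the start. The interferon response element was found at 4 of the 36 members (Psmb3, Psme1, Psmd4 and Psmd9; 11.1%) and at 3.99% of the 27025 genes with an entry. The gamma activated site was found at Psmb8 and Psmd2, or 5.56% of members against 9.55% of those genes. The antioxidant core was found at 6 members (Psmb5, Psmb6, Psmc6, Psmd9, Psmd12 and Psme4; 16.7%) and at 14.0% of genes. These matches describe letters in a window and were not tested for binding.

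Library depth ran from 1104490 to 21014171 reads. The libraries were split into 2 kinds by their level of sensory receptor genes (smell, pheromone and taste), which is used here as a measure of background. The cut was set at the widest gap on a log scale. The level was 165 to 884 CPM without scaling in 5 low background libraries, and 2016 to 7884 in 7 high background libraries. It varied widely within each kind, so the split is a simplification of a graded measure. All 3 naive brain libraries, day 3 replicate 1 and day 30 replicate 1 were low, and all 3 blood libraries were high. The low libraries held 3469973 to 21014171 reads and the high ones 1104490 to 2141262, so depth moved with background. Naive brain and blood therefore share no kind, and the effect of tissue and that of library background cannot be told apart. All 6 CD8 T cell markers in the table (of 8 listed) were detected in every library, at 0.236% to 0.384% of reads in blood, 0.496% to 0.671% in naive brain, 0.056% to 0.190% of day 3 reads and 0.390% to 1.03% at day 30. The 12 listed microglia markers took 0.019% to 0.046% of blood reads, 1.07% to 2.19% of naive brain reads, and 0.405% to 1.503% at day 3 and 0.199% to 0.565% at day 30, with none at 0 in any library. The 7 monocyte and macrophage markers took 0.049% to 0.169%, 0.275% to 0.404%, 0.326% to 1.06% and 0.268% to 0.439% in the same order, with Ms4a7 at 0 in day 30 replicate 3. The part of such cells in the values below was not tested, and in these bulk libraries fewer cells of a type and less RNA per cell cannot be told apart.

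Together the 43 members took 0.481% to 0.561% of reads in blood, 0.671% to 0.774% in naive brain, 0.399% to 0.738% at day 3 and 0.609% to 1.02% at day 30. Every naive brain library was above every blood library, and the stroke libraries overlapped naive brain. Nearly all members were detected everywhere, and the 1 zero was Psma8, the testis form of an alpha subunit, in naive brain replicate 2, where a count of 0 allows up to 0.323 CPM (3 reads). Psma8 reached at most 39.9 CPM and Psmb11, the thymus catalytic subunit, at most 48.3 CPM.

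The pooled share of inducible subunits among catalytic subunit reads was higher in naive brain than in blood. Of the reads on the 6 catalytic subunits, Psmb8, Psmb9 and Psmb10 took 53.4% (95% Wilson interval 50.9 to 55.9), 52.1% (48.4 to 55.7) and 49.2% (47.1 to 51.4) in the 3 blood libraries. In naive brain they took 75.4% (74.3 to 76.5), 75.2% (74.7 to 75.7) and 75.9% (75.5 to 76.3). The 3 naive brain libraries were within a percentage point of each other and all above blood. Pooling hides unlike sites in blood: Psmb8 gave 702 of the 821 inducible reads of replicate 1, and Psmb10 gave 207 of the 374 of replicate 2. The sites are compared singly below. Naive brain and blood share no kind of background, so tissue and background cannot be told apart here. At day 3 the share was 65.9% (64.9 to 66.8), 74.9% (71.9 to 77.7) and 70.5% (68.3 to 72.7), all below the naive brain values and all above blood. At day 30 it was 76.0% (75.3 to 76.6), 81.2% (79.6 to 82.7) and 52.8% (50.6 to 55.0), so that replicate 3 lay among the blood libraries and replicate 2 was the highest of all 12. Among the 7 high background libraries the share ran from 49.2% in blood replicate 3 to 81.2% in day 30 replicate 2. Of the 4 high background brain libraries, 3 were above all blood libraries and day 30 replicate 3 was not. No blood library was of low background, and the part of background in the share was not tested. The share uses counts without regard to gene length, so its level is set in part by length and only its differences between libraries are read here. The intervals cover counting error only.

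**Figure D1:**
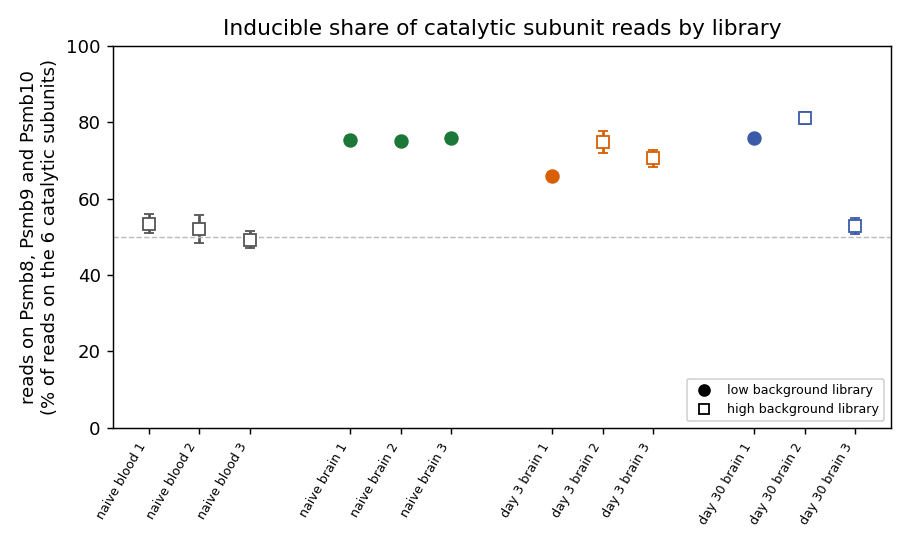
Reads on Psmb8, Psmb9 and Psmb10 as a percentage of reads on the 6 catalytic subunits (vertical axis) in each of the 12 libraries (horizontal axis), with 95% Wilson intervals, filled circles for low and open squares for high background libraries. The 3 blood libraries lie between 49.2% and 53.4% and the 3 naive brain libraries between 75.2% and 75.9%, while day 30 replicate 3 lies at 52.8%.

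The inducible catalytic subunits were higher in naive brain than in blood. Psmb8, which carries the chymotrypsin-like site of the immunoproteasome, stood at 379.6, 36.2 and 237 CPM in blood, 1178, 1248 and 2204 CPM in naive brain, 1214, 141 and 380.2 CPM 3 days after stroke and 1679.9, 596 and 381 CPM 30 days after it. Every naive brain library exceeded every blood library, day 3 overlapped both of those groups, and day 30 lay just above blood and overlapped naive brain. The difference between naive brain and blood on the log2(CPM + 1) scale was 3.30 ± 0.74 (SE; adjusted p = 0.0016) by limma with Benjamini-Hochberg adjustment over all 22352 genes tested. Psmb9, at the caspase-like site, stood at 16.2, 55.4 and 70.7 CPM in blood, 242, 521 and 779 CPM in naive brain, 452, 76.9 and 92.1 CPM 3 days after stroke and 765, 158 and 91.7 CPM 30 days after it. It again had no overlap between blood and naive brain, and all 3 day 3 and all 3 day 30 libraries also lay above blood. The limma difference of naive brain from blood was 3.49 ± 0.78 (SE; adjusted p = 0.00169). Psmb9 lies at chr17:34181987-34187764 (mm10, GENCODE M21) and overlaps the start of the peptide transporter gene Tap1 on the other strand, so reads from the overlap could belong to either gene if strand was not counted. Psmb10, at the trypsin-like site, stood at 48.1, 114 and 47.5 CPM in blood, 174, 623 and 651 CPM in naive brain, 330.0, 74.6 and 160.1 CPM 3 days after stroke and 495, 183 and 14.5 CPM 30 days after it. Blood and naive brain did not overlap, and the lowest library of all was day 30 replicate 3. Its limma difference of naive brain from blood was 2.68 ± 0.82 (SE; adjusted p = 0.0318), a call that held in 6 of the 12 alternative settings and fell to 0.27 with a term for library background.

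Of the PA28 subunits, Psme1 was called higher in naive brain and Psme2 was not. Psme1 (PA28 alpha) stood at 105, 166 and 152 CPM in blood, 929, 717 and 1053 CPM in naive brain, 756, 125 and 307 CPM 3 days after stroke and 995, 242 and 361 CPM 30 days after it. All of its blood libraries lay far below naive brain, with a limma difference of 2.67 ± 0.69 (SE; adjusted p = 0.00806). Psme2 (PA28 beta) stood at 374, 154 and 241 CPM in blood, 572, 682 and 730.5 CPM in naive brain, 709.7, 48.7 and 289 CPM 3 days after stroke and 961, 377 and 273 CPM 30 days after it. The naive brain libraries were all above blood here too, and the limma difference of 1.45 ± 0.72 (SE; adjusted p = 0.192) did not pass the threshold of 0.05 and came to -0.00014 under quantile normalization. Whether Psme1 and Psme2 differed from each other was not tested. Psme2b, a near copy of Psme2 that could share its reads, reached at most 135 CPM.

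None of the constitutive catalytic subunits passed the threshold. Psmb5, the standard partner of Psmb8 at the chymotrypsin-like site, stood at 99.5, 96.5 and 79.5 CPM in blood, 143, 289 and 388 CPM in naive brain, 283, 4.09 and 61.6 CPM 3 days after stroke and 234, 96.9 and 124 CPM 30 days after it. Naive brain lay above blood in every library, and the limma difference was 1.46 ± 0.84 (SE; adjusted p = 0.259). The lowest value of all 12 libraries was that of day 3 replicate 2. Psmb6, the caspase-like subunit, stood at 185, 49.4 and 191 CPM in blood, 321, 411 and 581 CPM in naive brain, 618, 64.1 and 146 CPM 3 days after stroke and 504, 60.6 and 308 CPM 30 days after it. Naive brain was above blood without overlap, and the limma difference was 1.81 ± 0.77 (SE; adjusted p = 0.127). Psmb7, the trypsin-like subunit, stood at 103, 42.8 and 94.7 CPM in blood, 55.0, 88.9 and 184 CPM in naive brain, 131, 30.0 and 56.8 CPM 3 days after stroke and 192, 59.7 and 3.16 CPM 30 days after it. Its blood and naive brain libraries overlapped, with a limma difference of 0.37 ± 0.90 (SE; adjusted p = 0.809) that turned to -0.84 with unscaled CPM and -0.78 under quantile normalization. Day 30 replicate 3 was again the lowest. Of the 8 contrasted subunits, 4 of the 5 inducible and none of the 3 constitutive ones were called higher in naive brain, where 6.61% of all genes tested were. Whether the inducible and the constitutive subunits differed in their change was tested only through the ratios that follow.

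**Figure D2:**
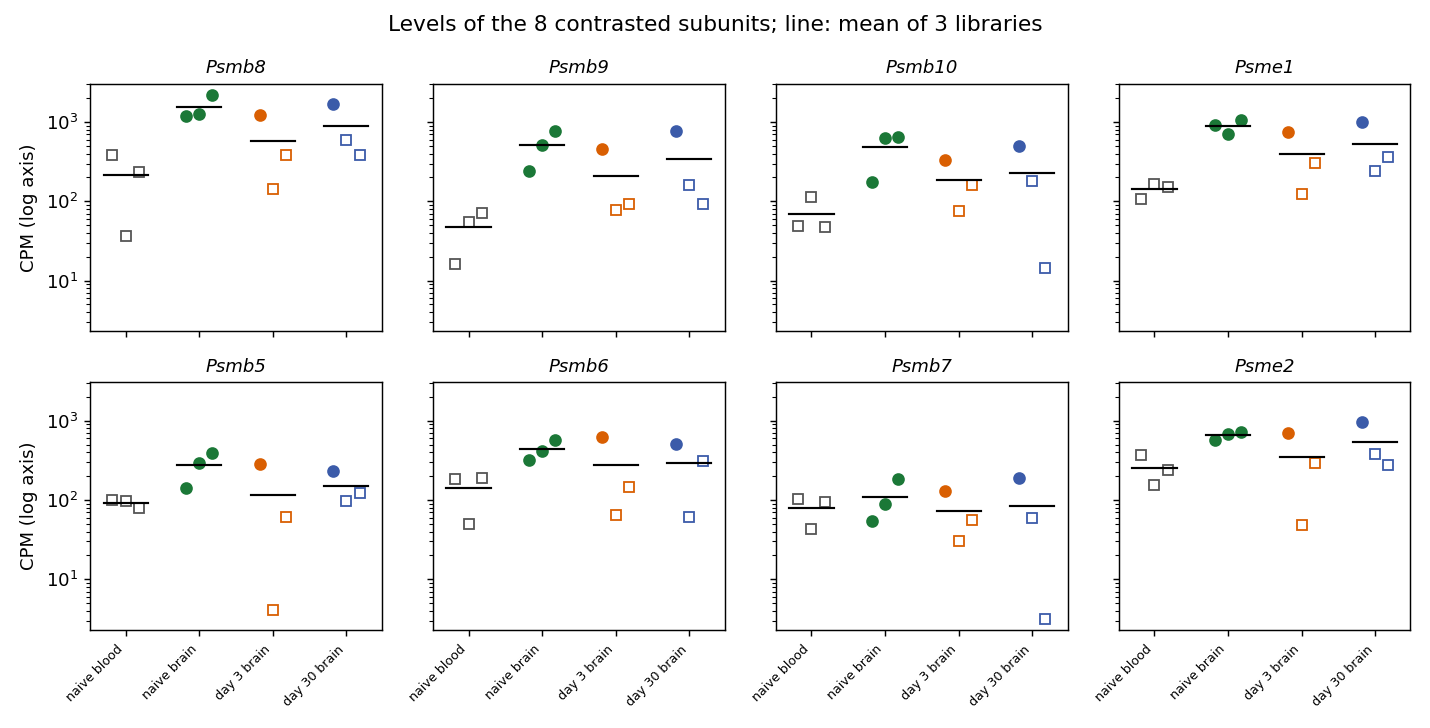
CPM on a log axis (vertical) of the 8 contrasted subunits in the 4 groups (horizontal), 1 point per library, with filled circles for low and open squares for high background libraries and a line at the mean of 3 libraries. Psmb8 rises from 36.2 to 379.6 CPM in blood to 1178 to 2204 CPM in naive brain, whereas the ranges of Psmb7 in those groups overlap.

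Apart from the pseudocount, ratios within a library do not depend on how that library was scaled. The log2 ratio of Psmb8 over Psmb5 was 1.92, -1.39 and 1.56 in blood, 3.03, 2.10 and 2.504 in naive brain, 2.10, 4.81 and 2.61 in the day 3 libraries, and 2.84, 2.61 and 1.61 in the day 30 libraries. Naive brain and day 3 lay wholly above blood, and day 30 overlapped it through replicate 3. The naive brain mean exceeded the blood mean by 1.85 (exact two-sided permutation p = 0.1, the smallest that 3 against 3 allows; adjusted p = 0.400 over 18 ratio tests). The ratio of Psmb9 over Psmb6 was -3.43, 0.16 and -1.42 in blood, -0.41, 0.34 and 0.42 in naive brain, -0.45, 0.26 and -0.66 in the day 3 libraries, and 0.60, 1.37 and -1.74 in the day 30 libraries. The groups overlapped in all 6 comparisons of this pair, and the difference of naive brain from blood was 1.68 (exact permutation p = 0.2, adjusted p = 0.400). The ratio of Psmb10 over Psmb7 was -1.08, 1.39 and -0.98 in blood, 1.64, 2.79 and 1.81 in naive brain, 1.32, 1.29 and 1.48 in the day 3 libraries, and 1.36, 1.60 and 1.89 in the day 30 libraries. Naive brain lay above blood by 2.31 without overlap (exact permutation p = 0.1, adjusted p = 0.400). Day 3 lay below naive brain by 0.72 without overlap, with the same exact permutation p of 0.1 and adjusted p of 0.400. No ratio could pass an adjusted threshold in a design of this size, so these tests cannot show a change or its absence. All 3 ratios were on average higher in brain than in blood in each of the 3 brain groups, by 1.28 to 2.47, and these differences share the same 3 blood libraries. Single blood libraries moved them: without blood replicate 2, Psmb8 over Psmb5 differed by 0.81 in naive brain, 1.43 at day 3 and 0.61 at day 30, and without blood replicate 1, Psmb9 over Psmb6 differed by 0.75, 0.35 and 0.71. Without blood replicate 2, Psmb9 over Psmb6 differed by 2.55, 2.14 and 2.51, and Psmb10 over Psmb7 at day 3 by 2.39. Without day 30 replicate 3, Psmb9 over Psmb6 at day 30 differed by 2.55. The high value of Psmb8 over Psmb5 in day 3 replicate 2 rests on 9 reads of Psmb5. That of Psmb10 over Psmb7 in day 30 replicate 3 rests on 7 reads of Psmb7 and 32 of Psmb10. Within the high background libraries (2 stroke against 3 blood) the differences were 3.01, 1.37 and 1.61 at day 3 and 1.41, 1.38 and 1.97 at day 30, in the order Psmb8, Psmb9 and Psmb10.

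**Figure D3:**
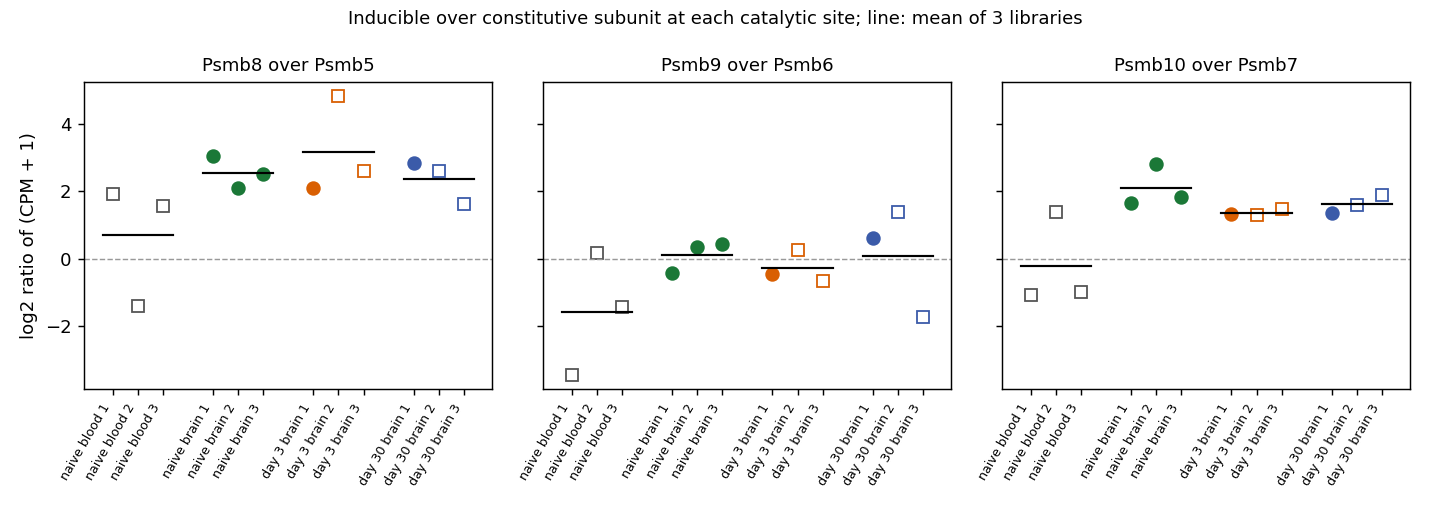
Log2 ratio of (CPM + 1) of the inducible over the constitutive subunit at each of the 3 catalytic sites (vertical) in the 12 libraries (horizontal), with filled circles for low and open squares for high background libraries and a line at the mean of 3 libraries. The blood libraries spread over more than 2 log2 units in each panel, from -1.39 to 1.92 for Psmb8 over Psmb5, and the naive brain libraries over about 1.

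Across all roles, naive brain against blood called 10 of 43 members (23.3%), all higher, where 7.59% of all genes tested were called and 6.61% were called higher. Without the adjustment, 24 members were under 0.05 (55.8%, against 25.9% of all genes). The median difference over the members was 1.60, and 40 of 43 were above 0, while the median over all genes tested was -0.37. The sign of the latter depends on weakly expressed genes. With a filter of 10 CPM in 3 libraries the medians were 1.68 over members and 0.46 over all genes, both above 0. In 23 members every naive brain library lay above every blood library (53.5%, against 15.6% of all genes), and the reverse held for 1 member, Psme4 (2.33%, against 15.2%). Beside this stand the background of the libraries, high in blood and low in naive brain, and the microglia markers, at most 0.046% of reads in blood and at least 1.07% in naive brain. The CD8 T cell and the monocyte and macrophage markers were also higher in naive brain without overlap. The 4 erythroid markers were lower, at 0.016% to 0.495% of reads in blood and 0.0004% to 0.004% in naive brain (0.008% to 0.170% at day 3, at most 0.0003% at day 30), with Alas2 at 0 in blood replicate 1 and Hbb-bt in naive brain replicate 2. Markers of neurons, oligodendrocytes, endothelial cells, neutrophils and CD4 T cells were lower in naive brain as well, none above 0.0751% of reads in any library. Their part in the members' difference was not tested. When the fit also held a term for library background, no member was called and the median member difference was -0.46. That fit takes the background effect from the stroke groups, since neither of these 2 groups holds both kinds.

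The number of members called changed with the scaling. Unscaled CPM shifts all genes of a library alike, apart from the pseudocount, so it cannot test the members' direction relative to all genes. Quantile normalization can, and there the members' median stayed above that of all genes. With unscaled CPM, which leaves out the authors' scaling factors, 5 members were called higher and 1 lower. Of all 22352 genes, 693 were called higher and 870 lower there. 28 of 43 members were above 0 and the median was 0.39 against -1.05 over all genes. Under quantile normalization 3 members were called higher (Psmb8, Psmb9 and Psmd7) and 1 lower (Psme4), with a median of 0.51 against -0.14. Of all 22352 genes, 574 were called higher and 130 lower under it. The lower member under both was Psme4. Psmb9 was called in 11 of 12 alternative settings and Psmb8 in 11, the exception being the background term for both. Leaving out naive brain replicate 3 left 3 members called (Psmb8, Psmb9 and Psmd7), and leaving out naive brain replicate 2 or blood replicate 1 left 6. Psmb9 and Psmd7 were called whichever library was left out, and Psmb8 lost its call without blood replicate 2. Psmb10 lost its call without blood replicate 1, blood replicate 3, naive brain replicate 2 or naive brain replicate 3. Psme1 lost it without blood replicate 1 or naive brain replicate 3. On recovered reads edgeR called 8 members, all higher, where it called 5.27% of all genes and 4.72% higher. DESeq2 called 7 (16.3%), no larger a share than its 17.2% of all genes, of which 6 were higher, against 5.94% of all genes, and 1 was lower, Psmb11 at -4.31 (adjusted p = 0.0217).

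**Figure D4:**
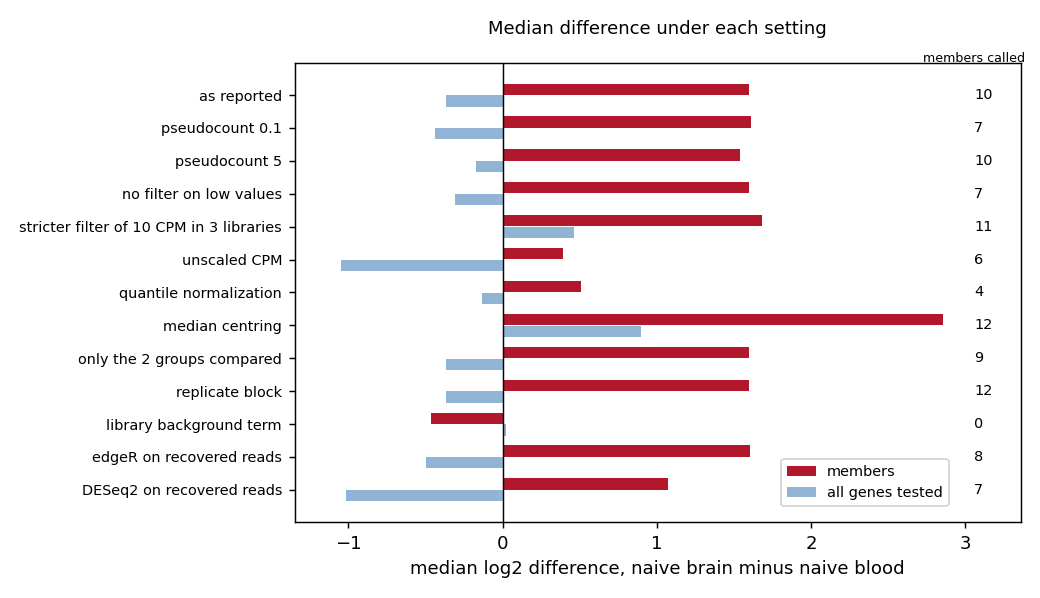
Median log2 difference of naive brain minus blood (horizontal axis) over the members (red bars; 43, or 42 under the stricter filter) and over all genes tested (blue bars) under each setting (vertical axis), with the number of members called at the right. The members' median lies above that of all genes in every setting shown except the library background term, where it is -0.46 and no member is called. Unscaled CPM and median centring shift all genes of a library alike, apart from the pseudocount. The replicate block and the fit of only the groups compared leave the differences unchanged. These settings therefore do not test the gap between members and all genes.

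In the 20S core outside the catalytic pairs, 2 members were called higher in naive brain than in blood, where 6.61% of all genes tested were. The alpha ring gates the entry to the core, and all 7 of its ordinary subunits had differences above 0 between naive brain and blood, from 0.69 to 2.25, with a median of 1.38. Psma7 was called, at 125, 159 and 29.9 CPM in blood and 356, 392 and 479 in naive brain, with a limma difference of 2.25 ± 0.73 (SE; adjusted p = 0.0423). Of the 4 beta subunits without a proteolytic site, Psmb2 was called. It stood at 163, 92.7 and 48.2 CPM in blood and 473, 318 and 487 in naive brain, and its limma difference was 2.20 ± 0.72 (SE; adjusted p = 0.0451). Both were near the threshold, with Psma7 called in 4 and Psmb2 in 5 of 12 alternative settings, and each in 6 of the 12 fits that left out 1 library. Psmb4, another beta subunit, stood at 101, 69.7 and 42.2 CPM in blood and 140.3, 371 and 537 in naive brain with a limma difference of 2.17 ± 0.74 (SE; adjusted p = 0.0562).

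In the 19S regulatory particle, 4 of 17 members were called higher in naive brain than in blood, where 6.61% of all genes tested were. Psmc3, 1 of the 6 ATPases that unfold substrates, stood at 29.2, 13.2 and 36.3 CPM in blood and 119, 292 and 361 in naive brain. Its groups were far apart, with a limma difference of 3.21 ± 0.80 (SE; adjusted p = 0.0057), and Psmc3 overlaps Slc39a13 on the other strand. The other 5 ATPases did not pass, and all 6 differences were above 0. Psmd7, a lid subunit that pairs with the deubiquitinase Psmd14, stood at 13.5, 46.1 and 6.34 CPM in blood and 164, 238 and 294 in naive brain. It had the largest difference of any member, 3.73 ± 0.86 (SE; adjusted p = 0.00253) by limma. Psmd14 itself stood at 120.0, 29.1 and 54.6 CPM in blood and 58.1, 153 and 179.9 in naive brain and did not pass (limma adjusted p = 0.417). Psmd4, a receptor for ubiquitin chains, stood at 40.02, 16.5 and 49.98 CPM in blood and 158, 291 and 428 in naive brain, a limma difference of 3.03 ± 0.81 (SE; adjusted p = 0.0113). Psmd2, the large scaffold of the base, stood at 24.9, 31.8 and 33.8 CPM in blood and 196, 259 and 183 in naive brain, a limma difference of 2.77 ± 0.79 (SE; adjusted p = 0.0184). In each of these 4 genes the groups did not overlap. Without naive brain replicate 3, Psmc3, Psmd4 and Psmd2 lost their calls, as did Psmd4 without blood replicate 2, and Psmd2 without blood replicate 1 or naive brain replicate 2. Psmd13, a lid subunit, stood at 8.11, 20.8 and 0.352 CPM in blood and 7.75, 129 and 24.6 in naive brain, and its groups overlapped widely (limma adjusted p = 0.179). The 3 assembly chaperones, Psmd5, Psmd9 and Psmd10, which help the base form and leave before the particle is complete, had differences of 0.68, 1.98 and 0.46, none called.

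Neither activator outside PA28 alpha and beta was called. Psme4 (PA200), a nuclear activator that works without ubiquitin, stood at 73.0, 92.7 and 120.4 CPM in blood, 60.8, 2.91 and 39.9 CPM in naive brain, 102, 66.0 and 38.6 CPM 3 days after stroke and 47.3, 101 and 139.5 CPM 30 days after it. It was the only member with every naive brain library below every blood library, at a limma difference of -2.14 ± 0.85 (SE; adjusted p = 0.103), which did not pass. Psme3 (PA28 gamma), a nuclear relative of Psme1, stood at 55.7, 75.1 and 20.1 CPM in blood and 55.0, 98.7 and 113 in naive brain with a limma difference of 0.94 ± 0.84 (SE; adjusted p = 0.473). The testis and thymus forms were low: Psmb11 stood at 0.541, 48.3 and 14.4 CPM in blood and 3.10, 1.40 and 0.199 in naive brain, with a limma difference of -2.21 ± 1.21 (SE; adjusted p = 0.233), and Psma8 at 12.4, 6.03 and 0.704 CPM in blood and 39.9, 0 and 1.19 in naive brain (-0.28). Psmb11 was highest in high background libraries, at 48.3 CPM in blood replicate 2 and 25.7 CPM in day 30 replicate 2.

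**Figure D5:**
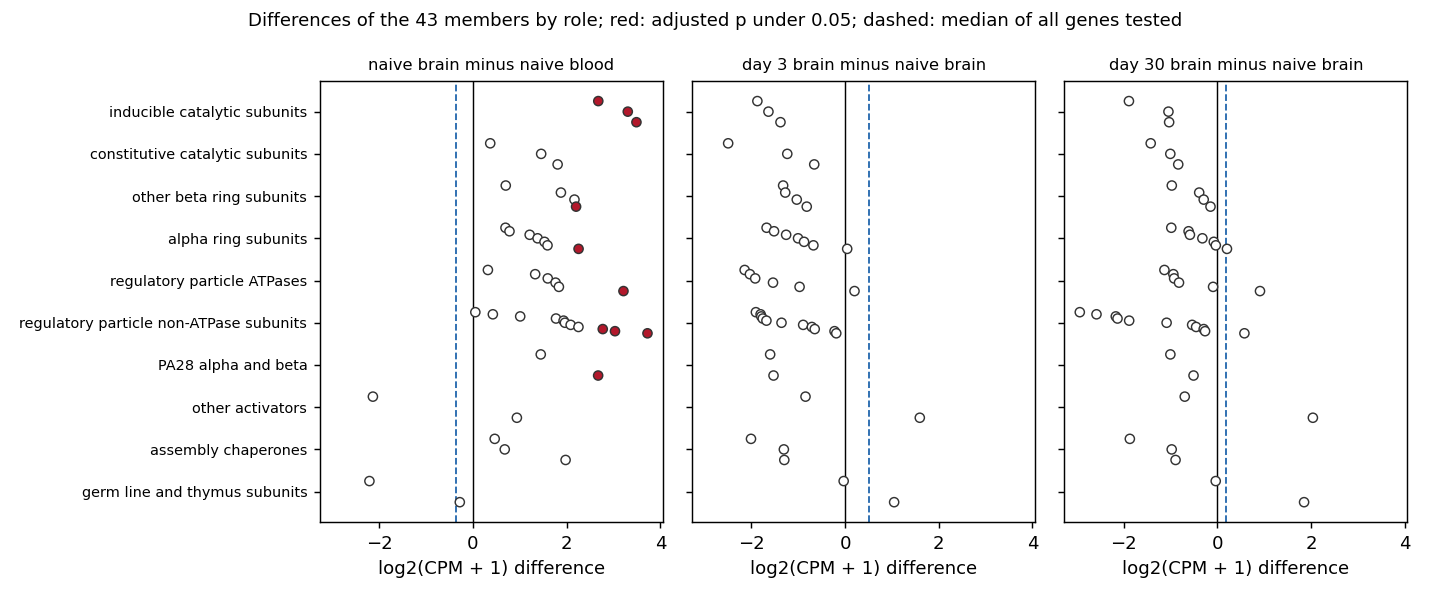
Log2(CPM + 1) differences (horizontal) of the 43 members by role (vertical) in 3 comparisons, with members at an adjusted p under 0.05 in red and the median of all genes tested as a dashed line. In naive brain minus blood, 40 of 43 members lie above 0 and 10 are red, and in day 3 and day 30 minus naive brain 39 and 38 members lie below 0 with none red.

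At 3 days after stroke the members were on average lower than in naive brain, and none passed the test. No member was called, where limma called 0.716% of all genes, and edgeR (0.0761% of all genes) and DESeq2 (4.47%) called none either. Without adjustment 15 of 43 members were under 0.05 (34.9%, against 12.8% of all genes), all of them lower. 39 of 43 differences were below 0, with a median of -1.30 over members and 0.50 over all genes. With the filter of 10 CPM in 3 libraries the medians were -1.30 and -0.32, so the genes that passed it were lower at the median as well. With unscaled CPM the medians were -0.34 and 1.13, with 16 members above 0, and under quantile normalization -0.31 and 0.02, again with 16. With the library background term the member median was 0.0019, with 22 of 43 above 0, and 0.13 over all genes. Psmb5 had the lowest value of the 43, -2.498 ± 0.84 (SE; adjusted p = 0.177) by limma, followed by the ATPases Psmc2 at -2.15 and Psmc4 at -2.03. Psmb8, Psmb9 and Psmb10 differed by -1.87, -1.64 and -1.38, with limma adjusted p of 0.276, 0.375 and 0.436. Psme1 and Psme2 differed by -1.53 and -1.60, and Psmb6 and Psmb7 by -1.24 and -0.66. The range of the constitutive subunits thus enclosed that of the inducible ones. The highest values were Psme4 at 1.59 and Psmb11 at 1.05. In 5 members (Psmd2, Psmd3, Psmd6, Psmd7 and Psmd9) every day 3 library lay below every naive brain library. That is 11.6% of members, near the 8.50% of all genes, so no pattern is read from these names.

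The 3 day 3 libraries were not alike. Replicate 1, of low background, had a median member level of 166 CPM, and replicates 2 and 3, of high background, 43.7 and 61.6 CPM. Naive brain had 119, 238 and 294 CPM. Set against naive brain, the low background library alone gave a median difference of 0.06 with 23 of 43 members above 0. Without replicate 1, 5 members were called lower by limma (Psmb5, Psmb8, Psmc2, Psme1 and Psme2). That fit sets only high background day 3 libraries against low background naive brain libraries. In it the effect of stroke and that of background cannot be told apart. Its share of calls over all genes is not given, so no pattern is read from these names. The CD8 T cell markers were at most 0.190% of reads in the day 3 libraries and at least 0.496% in naive brain, and their part in these differences was not tested.

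At 30 days after stroke the members again lay mostly below naive brain without passing the test. No member was called (0.224% of all genes were), and edgeR (0.0268% of all genes) and DESeq2 (1.07%) called none. Without adjustment 7 members were under 0.05 (16.3%, against 8.90% of all genes), 6 lower and 1 higher. 38 of 43 differences were below 0, with a median of -0.82 over members and 0.19 over all genes. With the filter of 10 CPM in 3 libraries the medians were -0.83 and -0.14, both below 0. With unscaled CPM the medians were -0.14 and 0.57, with 20 members above 0, and under quantile normalization -0.18 and 0.06, with 17. With the library background term the direction turned, to a member median of 0.61 with 36 of 43 above 0, and -0.024 over all genes. Psmd3, a lid subunit, had the lowest value, -2.94 ± 0.96 (SE; adjusted p = 0.251) by limma, and Psmd7 followed at -2.58. Psmd3 stood at 65.9, 127 and 154 CPM in naive brain and 118, 1.38 and 9.48 at day 30, so the difference rests on replicates 2 and 3. Psmb8, Psmb9 and Psmb10 differed by -1.03, -1.04 and -1.89, Psme1 and Psme2 by -1.001 and -0.51, and Psmb5, Psmb6 and Psmb7 by -0.83, -1.002 and -1.42. None of these 8 passed. Psme4 was the highest at 2.04 ± 0.85 (SE; adjusted p = 0.457) by limma. With unscaled CPM it was called higher, at 2.65, where 29 of all 22352 genes were called higher. Psmb11 was next at 1.85. Replicate 1, the low background library, had a median member level of 262 CPM, and replicates 2 and 3 had 66.1 and 78.6 CPM. Against naive brain that library alone gave a median difference of 0.49, with 36 of 43 members above 0. Without that library 6 members were called lower by limma: Psmb10, Psmd3, Psmd4, Psmd7, Psmd8 and Psmd11. Only high background day 30 libraries then stand against low background naive brain libraries. The effect of stroke and that of background cannot be told apart there. The share of calls over all genes is not given, so no pattern is read from those names.

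Between the 2 times after stroke no member was called (0.255% of all genes were by limma, 0.157% by edgeR and 0.747% by DESeq2), and 3 were under 0.05 without adjustment (6.98%, against 5.68% of all genes). The median member difference of day 30 minus day 3 was 0.45, with 31 of 43 above 0, and the median over all genes was -0.15. With the filter of 10 CPM in 3 libraries these medians were 0.49 and 0.08. The highest values were Psmc2 at 2.06 ± 0.85 (SE; adjusted p = 0.652) and Psma2 at 1.72 ± 0.72 (SE; adjusted p = 0.658) by limma. Psmd8, a lid subunit, was the lowest at -1.94, with 442, 51.9 and 146 CPM at day 3 and 360.0, 20.7 and 6.77 at day 30. Psmd3 was next at -1.25. Both groups of Psmd8 span low and high values, and it was called lower (-3.54) only when day 30 replicate 1 was left out. The 8 contrasted subunits differed by -0.76 (Psmb7) to 1.66 (Psmb5), and Psmb8 by 0.85.

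The stroke groups were also set against blood, which these comparisons share with that of naive brain. At day 3 no member was called by limma (1.18% of all genes were), edgeR (1.28%) or DESeq2 (2.57%). 3 were under 0.05 without adjustment (6.98%, against 8.29%), and the median member difference was 0.52. In 4 members (Psmb9, Psmc3, Psmd1 and Psmd4) every day 3 library lay above every blood library. That is 9.30% of members, near the 7.54% of all genes, so no pattern is read from these names either. At day 30 no member was called by limma (0.711% of all genes were), edgeR (0.64%) or DESeq2 (1.4%). 9 were under 0.05 without adjustment (20.9%, against 10.3%), all higher, and the median was 0.80. With the library background term the 2 medians were -0.0093 and 0.21. In 11 members every day 30 library lay above blood (25.6%, against 7.35% of all genes). With unscaled CPM, Psmb8 and Psmb9 were called higher at day 30, at 1.75 and 1.93, where 251 of all 22352 genes were called higher. Within the high background libraries (2 against 3) the median member difference was -0.10 at day 3 and 0.26 at day 30. In those libraries Psmb8 and Psmb9 differed from blood by 0.64 and 1.05 at day 3 and by 1.67 and 1.56 at day 30, and Psmb5 by -2.37 and 0.26, with no test.

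Genes that act before and after the proteasome were taken from 4 lists, and no list was tested as a set. Of 15 genes that carry or load class I peptides, 7 rose in naive brain over blood by limma, none fell, and the median difference was 2.496. Of all genes tested, 6.61% were called higher in that comparison. With the library background term only 35 of all 22352 genes were called in it. The 4 with the largest differences are given. Tapbpl, a relative of the loading chaperone tapasin, stood at 2.16, 7.13 and 0 CPM in blood and 24.8, 192 and 243 in naive brain and rose by 5.18 ± 1.11 (SE; adjusted p = 0.00107). The class I heavy chain H2-D1 stood at 674, 468 and 909.5 CPM in blood and 4614, 12383 and 12586 in naive brain and rose by 3.76 ± 0.67 (SE; adjusted p = 6.33e-05). The chaperones Pdia3 and Calr of the loading complex rose as well, by 4.07 ± 0.76 (SE; adjusted p = 0.00016) and 3.73 ± 0.74 (SE; adjusted p = 0.000405). Tap1, added because it overlaps Psmb9, stood at 83.3, 71.9 and 29.6 CPM in blood and 237, 481 and 593 in naive brain and rose by 2.83 ± 0.75 (SE; adjusted p = 0.0103). At day 3 H2-D1 fell from naive brain by limma, at -2.83 ± 0.67 (SE; adjusted p = 0.0218), with 4005, 619 and 808 CPM there, and it was the 1 gene of the 15 to change. At day 30 none of the 15 changed from naive brain, and Pdia3 was above blood, at 3.02 ± 0.76 (SE; adjusted p = 0.0339).

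Of 18 genes of interferon gamma signalling, 4 rose in naive brain over blood and none fell, with a median of 1.39, where 6.61% of all genes were called higher. Ifng, the cytokine itself, stood at 9.19, 4.39 and 1.06 CPM in blood, 503, 363 and 468 CPM in naive brain, 139.8, 3.18 and 26.8 CPM 3 days after stroke and 794, 38.6 and 114 CPM 30 days after it. Every naive brain library exceeded every blood library and all but 1 at day 30. Ifng rose by 6.51 ± 0.94 (SE; adjusted p = 7.76e-07) in naive brain over blood by limma. It fell at day 3 from naive brain by limma, at -4.12 ± 0.94 (SE; adjusted p = 0.0155), and it was above blood at day 30, at 4.99 ± 0.94 (SE; adjusted p = 0.00105). The transcription factor Irf1, which drives Psmb9 and Tap1 in many cells, rose by 3.99 ± 0.84 (SE; adjusted p = 0.000889) in naive brain over blood. The feedback inhibitor Socs1 rose by 5.93 ± 1.01 (SE; adjusted p = 2.97e-05). Irf8, a factor most abundant in myeloid and B cells, rose by 5.90 ± 0.75 (SE; adjusted p = 3.57e-08) in naive brain and by 6.21 ± 0.75 (SE; adjusted p = 1.91e-08) at day 3, over blood. Socs1 and Irf8 were also called above blood at day 30, where limma called 0.711% of all genes. The microglia markers were above blood in all 3 brain groups, and their part in this was not tested.

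Of 15 tested genes that help build, regulate or recognise the proteasome, 1 rose in naive brain over blood, a share near the 6.61% of all genes called higher. That gene was Adrm1, a ubiquitin receptor of the 19S particle, at 4.38 ± 0.94 (SE; adjusted p = 0.0011) by limma. It was also above blood at day 30, at 3.69 ± 0.94 (SE; adjusted p = 0.036). Of 15 tested genes of the ubiquitin system, 3 rose in naive brain over blood, against the same 6.61% of all genes. Among them were the polyubiquitin gene Ubb, at 3.07 ± 0.68 (SE; adjusted p = 0.00147), and the segregase Vcp, at 3.60 ± 0.75 (SE; adjusted p = 0.000809), both by limma. Between day 30 and day 3 no gene of the 4 lists changed.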

How the data were processed

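RNA of sorted CD8 T cells was amplified with a SMART-Seq v4 ultra-low input kit, without molecular identifiers, per the labels' protocols. Those protocols speak of spleens, whereas tissue is given as brain or blood, which is used here. The submitters' processing notes name FastQC 0.11.2, STAR 2.5.3a, featureCounts of Subread, edgeR and the mm10 build. The annotation, strand setting and filters were not given in the sources used here.

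A single table was deposited by the authors, whose signal is CPM of a scaled library size, with column sums from 526580.2 to 2086823. Every value was a whole multiple of the worth of 1 read (100% within 1e-06 reads), so reads were recovered for shares, edgeR 4.0.16 and DESeq2 1.42.0. limma 3.58.1 (R 4.3.3; moderation with a trend) tested log2(CPM + 1) over all 12 libraries, for the 22352 genes that reached 1 CPM in 3 libraries or more. Its two-sided p-values carry the Benjamini-Hochberg adjustment, separately for each of 6 comparisons, at a threshold of 0.05. The limma, edgeR and DESeq2 tests were tried on simulated counts with known changes in naive brain against blood, and the other steps were not. Catalytic ratios were compared by exact permutation with SciPy 1.17.1. Gene positions are from GENCODE M21 and promoters from RefSeq.

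The 8 contrasted subunits were always named, with other members past the threshold, the 2 highest and 2 lowest of the main comparisons, members with a role of their own, and up to 4 called genes a list, of which 1 is not reported here. Members named for groups without overlap, or called only under an alternative setting, and Tap1 were added after their values were seen. The members, lists and tests were chosen with earlier results of these data known. Same-numbered day 3 and day 30 libraries deviated together (r = 0.53, 0.28 and 0.17 across genes), from the data and not the labels. So did day 30 replicate 2 with day 3 replicate 3 (r = 0.21) and day 30 replicate 3 with day 3 replicate 2 (r = 0.18). The numbers are therefore not read as pairs, and replicate 1 was the only low background library in both groups. Same-numbered libraries of other groups did not all deviate together. Wilson intervals are at 95% and cover counting error only. The alternatives were other pseudocounts, filters, scalings, tools and fits, a replicate block, a term for library background, and each library left out.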

Additional observations from a re-analysis of the deposited data

How the results depend on the processing

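For each comparison 12 alternative settings were run, and each library was left out in turn. The number of members called in naive brain over blood was 7, 10, 7, 11, 12, 9, 12, 8 and 7 with a pseudocount of 0.1, a pseudocount of 5, no filter, a filter of 10 CPM, median centring, only those 2 groups, the replicate block, edgeR and DESeq2, against 10 as reported. It was 6 with unscaled CPM, 4 with quantile normalization and 0 with the library background term, and it ran from 3 to 12 with 1 library left out. In day 30 over blood it was 2 with unscaled CPM and 1 with the replicate block (Psmb8, adjusted p = 0.0188 by limma), against 0. In day 30 over naive brain it was 1 with unscaled CPM, against 0. With 1 library left out it ran from 0 to 5 in day 3 over naive brain, from 0 to 6 in day 30 over naive brain and from 0 to 1 in day 30 over day 3. The replicate block moved no other count of members called past 1.5 times. Over all genes it moved the calls from 160 to 314 in day 3 over naive brain, from 50 to 121 in day 30 over naive brain, from 57 to 115 in day 30 over day 3 and from 159 to 296 in day 30 over blood. In day 30 over day 3 it called 0 members as well. The cause of these changes was not tested, beyond the loss of libraries that leaving them out implies.

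Single genes changed sign as follows. With the background term, naive brain over blood gave Psme2 -0.63, Psmb5 -1.08, Psmb6 -0.46, Psmb7 -2.25, Psmb11 0.75 and Psmd13 -0.19. Day 3 over naive brain gave Psmb9 0.051, Psmb10 0.22, Psmb6 0.28, Psmb7 1.09, Psmc4 0.065 and Psmb11 -0.93. Day 30 over naive brain gave Psmb8 0.37, Psmb9 0.65, Psme1 0.23, Psme2 0.88, Psmb5 0.86, Psmb6 0.51, Psmb7 0.33 and Psmb11 -0.12. With unscaled CPM, Psmb7 was -0.84 in naive brain over blood and 0.31 in day 3 over naive brain, Psme2 was 0.18 in day 30 over naive brain, and Psmb6 was -0.065 in day 30 over day 3. With quantile normalization the same values were -0.78, 0.31, 0.25 and -0.20, and Psme2 was -0.00014 in naive brain over blood. Median centring gave Psmb11 -0.012 in day 3 over naive brain. DESeq2 gave Psmb7 -0.15 in naive brain over blood, and Psmb10 0.071 and Psmb6 -0.00062 in day 30 over day 3. edgeR gave Psmb10 0.30, Psmb7 0.23 and Psmd3 0.16 in day 30 over day 3. As reported, none of these genes passed the threshold in the comparison concerned. The cause of the sign changes was not tested.

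With 1 library left out, the log2 ratio of Psmb8 over Psmb5 ran from -0.19 to 1.16 in day 3 over naive brain and from -0.44 to 0.18 in day 30 over naive brain. That of Psmb9 over Psmb6 ran from -0.69 to 0.87 in day 30 over naive brain and from -0.28 to 1.27 in day 30 over day 3. Psmb7 ran from -0.094 to 0.77 in naive brain over blood and from -2.62 to 0.15 in day 30 over naive brain. In day 30 over day 3, Psmb9 ran from -0.29 to 1.40, Psmb10 from -1.58 to 0.92, Psme1 from -0.12 to 1.18, Psmb6 from -0.50 to 1.13, Psmb7 from -1.96 to 0.81 and Psmd3 from -2.78 to 0.044. Where a library left out leaves 2 in its group, limma takes the spread from all groups. All ranges in this paragraph change sign, so no direction is read from these values. Depth limits the low members: in blood replicate 2, the shallowest library, a count of 0 allows up to 1.65 CPM.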
